A study of Mus musculus with 2 samples.

Results

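Rab, Arf and Arl genes encode small GTPases that direct membrane traffic inside the cell, and 68 of them, or genes named after them, were compared between an Id1 knockout and a wild-type array of mouse embryonic stem (ES) cells. They were chosen by name: all probe sets that the platform annotation assigned to exactly 1 symbol that is Rab, Arf or Arl followed by a digit. This gave 136 of the 22690 probe sets and 68 of the 12393 genes with a symbol of their own. By name, 50 of the 68 are Rab GTPases and 10 are Arf or Arl GTPases. The other 8 carry the name of a GTPase that they bind, regulate or lie beside. These are Rab3gap2, Rab3il1, Rab3ip, Rab5if, Rab11fip5, Arl2bp, Arl14ep and the opposite-strand transcript Rab26os.

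The study measured total RNA of Id1 knockout and of wild-type ES cells with 1 single-channel array for each genotype. Both cultures grew on gelatin with serum and leukaemia inhibitory factor (LIF), a cytokine under which mouse ES cells self-renew. Id1 is a helix-loop-helix protein that sequesters E proteins, and the series' title names its effect on self-renewal. The labels give no strain, clone or passage, and do not say which part of Id1 was removed.

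Small GTPases of this kind bind membranes in their GTP-bound form and leave them, or become inactive, after hydrolysis to GDP. Rab proteins carry a prenyl lipid at the C-terminus, and each marks its own compartment and recruits motors, tethers and fusion factors to it. Arf proteins carry a myristoyl lipid at the N-terminus and recruit vesicle coats, while Arl proteins act at the Golgi, on the cilium or in tubulin folding. Guanine nucleotide exchange factors (GEFs) switch them on and GTPase-activating proteins (GAPs) switch them off. In ES cells, as in every cell, the housekeeping members keep secretion and endocytosis running, and members such as Rab25 are known from epithelia.

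The deposited values are linear intensities. Differences are given as log2 intensity of the knockout minus that of the wild type, after each array's median was subtracted, so 1.00 means 2-fold higher in the knockout. A gene is represented by its brightest probe set on average. It is compared when at least 1 of its 2 values reaches the median of that array, which was 155.0 for the knockout and 152.5 for the wild type. With 1 array per genotype there is no replicate, so no test and no p-value is given. Culture, clone, array, genotype and the difference in sex chromosome signal described below cannot be told apart. The spread that could be had is technical: the log2 differences of probe sets to 1 gene had an SD of 0.22 in the median over 2567 genes, and 0.25 over the 23 members with several passing probe sets.

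The Id1 probe set was 2.30-fold lower in the knockout, at 461 against 1045. All 7 ES cell markers checked passed the filter, with intensities that summed to 29568 on the knockout array and 35433 on the other. Nanog was the 1 ES cell marker past 2-fold, 2.51-fold lower. Of 25 markers of other cells 7 passed the filter. These were Acta2 (613 in the knockout against 439), Tubb3 (340 and 402), Thy1 (193 and 276), Dab2 (216 and 117, or 1.81-fold higher), Hand1 (213 and 189), Col1a2 (199 and 194) and Des (120 and 176). The summed intensities in knockout and wild type were 797 and 754 for 8 fibroblast genes, 640 and 709 for 6 endoderm genes, 436 and 461 for 4 trophoblast genes, 543 and 511 for 3 neural genes and 894 and 713 for 4 muscle genes. The fibroblast markers Pdgfra and Pdgfrb lay on both arrays at the floor, the 25th percentile below which values were not told apart (48.4 in the knockout, 47.6 in the wild type). The part of these marker differences in the results below was not tested.

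Very few of the trafficking GTPase genes differed strongly between the arrays. Of the 68 members 48 passed the filter, 1 of them was at least 2-fold lower in the knockout, none was at least 2-fold higher, and 47 lay between. Over all 7369 genes past the filter, 7.84% were past 2-fold, 3.92% in each direction, against 2.08% of the members. With both arrays required to reach the median, the share was 4.47% of 6420 genes and 2.22% of 45 members. The member past 2-fold was Rab9, which recycles sorting receptors of lysosomal enzymes from late endosomes to the Golgi. The median log2 difference of the 48 was -0.03, beside -0.01 for all genes, and 23 lay above 0 and 25 below. The share above 0 was 47.9%, beside 48.8% of all genes.

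At smaller differences the members' share was close to that of all genes. Past 1.5-fold, 6 members were higher and 5 lower in the knockout, or 22.9% together, beside 22.0% of all genes (10.5% higher and 11.5% lower). The median size of the log2 difference was 0.32 for the members and 0.29 for all genes. The distribution of the differences shows the middle of the members' curve close to that of all genes.

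**Figure D1:**
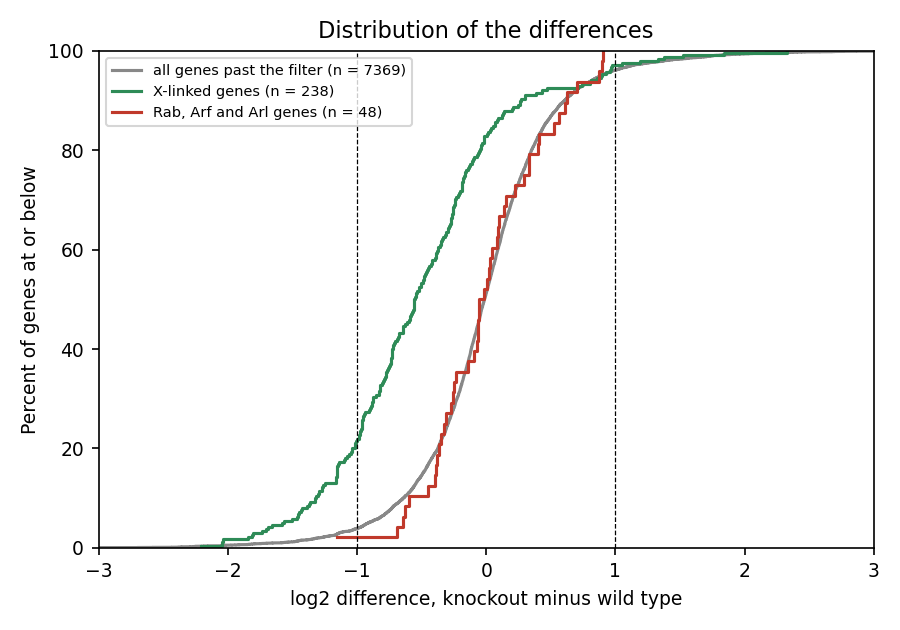
Cumulative percent of genes (y axis) at or below each log2 difference, knockout minus wild type (x axis), for all 7369 genes past the brightness filter, the 238 X-linked ones and the 48 Rab, Arf and Arl members; dashed lines mark 2-fold. The members' curve runs with that of all genes near 0 and ends at -1.16 and 0.90, while the X-linked curve lies to the left.

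Large differences were less frequent among bright genes in general, so the members are also given by brightness. The genes past the filter were split into 4 bins of about equal size by mean brightness. From dim to bright, 15.6%, 7.71%, 5.16% and 2.93% of the genes were past 2-fold. The bins from dim to bright held 8, 10, 16 and 14 members, with 0, 0, 0 and 1 past 2-fold. Within the bins, the members' median size of difference was 0.38, 0.30, 0.33 and 0.26, beside 0.44, 0.30, 0.24 and 0.21 for all genes. The part of brightness in the members' share past 2-fold was not tested.

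**Figure D2:**
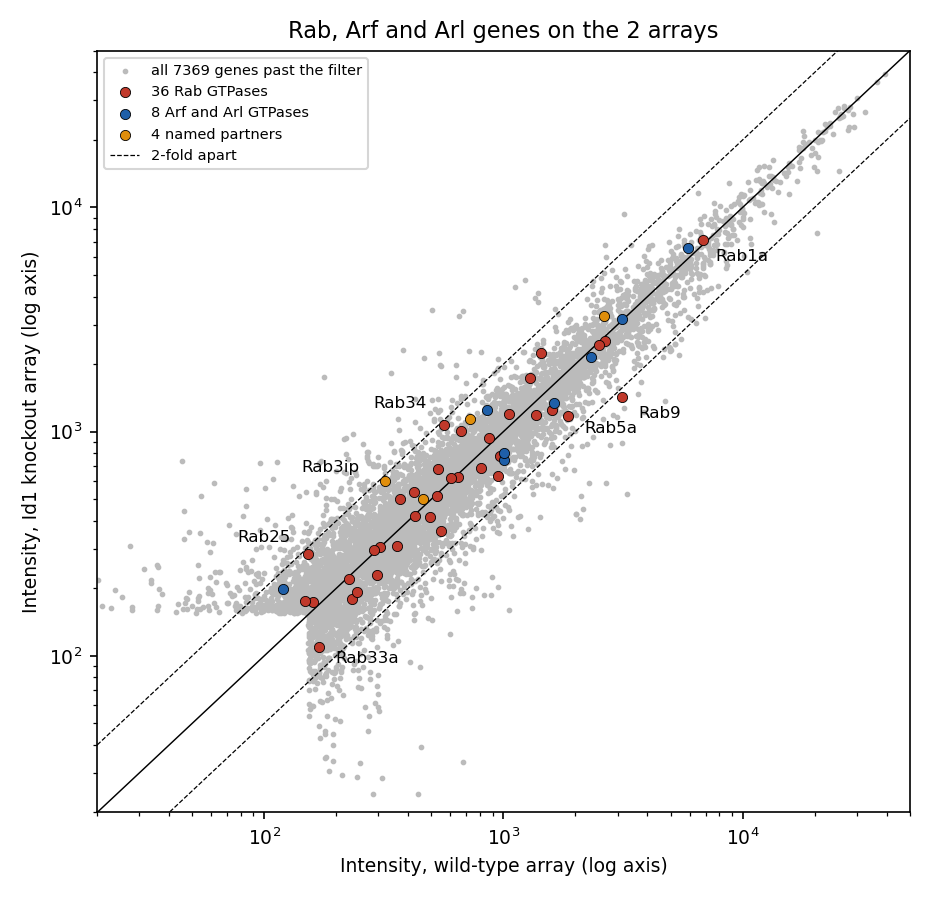
Intensity on the knockout array (y axis) against the wild-type array (x axis), both on log axes, for each gene past the filter (grey) and for the 36 Rab GTPases, 8 Arf and Arl GTPases and 4 named partners that passed; dashed lines mark 2-fold, and 4 genes under 20 on 1 array lie outside the plot. Rab9 lies below the lower dashed line, and Rab34, Rab3ip and Rab25 lie just inside the upper one.

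The sequence just before the transcript start is shown for the 2 members with the highest and the 2 with the lowest difference, since Id1 acts through E proteins, which bind the E-box CANNTG. Each run holds the 250 bases before the start from RefSeq (GRCm38.p6), read along the gene's strand, with E-boxes in capitals. Rab34 has 2 listed starts, of which the first is shown.
Rab34, chr11:78188177-78188426, plus strand: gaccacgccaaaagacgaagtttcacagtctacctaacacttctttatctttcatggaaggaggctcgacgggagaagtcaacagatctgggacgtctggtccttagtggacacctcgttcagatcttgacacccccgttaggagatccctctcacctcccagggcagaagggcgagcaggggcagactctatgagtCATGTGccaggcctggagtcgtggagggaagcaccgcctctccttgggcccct
Rab3ip, chr10:116950454-116950703, minus strand: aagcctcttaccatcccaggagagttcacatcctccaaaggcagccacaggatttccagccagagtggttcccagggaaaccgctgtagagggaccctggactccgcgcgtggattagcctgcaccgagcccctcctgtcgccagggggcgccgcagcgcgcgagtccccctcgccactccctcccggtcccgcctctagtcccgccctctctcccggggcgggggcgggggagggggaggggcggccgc
Rab9, chrX:166479868-166480117, minus strand: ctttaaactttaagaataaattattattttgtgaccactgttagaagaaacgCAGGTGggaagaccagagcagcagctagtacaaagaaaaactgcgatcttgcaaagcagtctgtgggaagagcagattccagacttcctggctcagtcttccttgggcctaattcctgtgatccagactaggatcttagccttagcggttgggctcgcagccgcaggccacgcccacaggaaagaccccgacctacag
Rab5a, chr17:53478984-53479233, plus strand: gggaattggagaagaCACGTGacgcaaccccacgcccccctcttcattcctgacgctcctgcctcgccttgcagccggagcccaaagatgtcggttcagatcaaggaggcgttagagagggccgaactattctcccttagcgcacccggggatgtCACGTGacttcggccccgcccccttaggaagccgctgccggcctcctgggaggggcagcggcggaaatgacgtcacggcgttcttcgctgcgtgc
The Rab34 and Rab9 windows hold 1 E-box each, the Rab5a window holds 2 and the Rab3ip window holds 0. Of the specific E-box forms counted below, the Rab9 window holds 1 match, and the Rab34 and Rab5a windows hold 0. The E-boxes of Rab34 and Rab5a are thus of other forms. CANNTG reads the same on both strands, so 1 strand was searched and overlapping matches were counted. The table held windows for 59 of the 68 members, and the 59 windows of the 44 members past the filter held an E-box in 50.8%. The share was 56.4% of the 7811 windows of all genes past the filter and 66.2% of all 32851 windows. The forms CACCTG or CAGGTG, 1 the reverse complement of the other, were in 10.2% of windows of passing members, beside 15.2% for all genes past the filter. The form CAGCTG was in 6.78% and 11.3%. A match describes letters in the window and no binding was measured.

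Rabs of the route from the endoplasmic reticulum (ER) through the Golgi differed in both directions. Of 11 such genes 9 passed the filter, 5 lay above 0, none was past 2-fold, and the median was 0.05. Rab1a, which drives ER to Golgi transport, had knockout and wild-type intensities of 7131 and 6800, and its other probe set gave 0.06 beside 0.05. Its paralog Rab1b had 687 and 807, a difference of -0.26. Both Rab1 genes thus stayed within 0.26 of 0.

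Rab2a, which tethers vesicles between ER and Golgi, was higher, at 2231 against 1441 (1.52-fold). Of its 4 passing probe sets, 3 gave between 0.51 and 0.61 and the last gave -0.09. The probe sets of Rab2b also disagreed, with 175 against 148 for the brightest and 161 against 55.1 (log2 difference 1.52) for another that passed. Rab6a, which serves retrograde Golgi traffic, read 1002 against 667, a difference of 0.56, but its other passing probe set read 592 against 625. For these genes the size of the difference depended on the probe set.

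Of the remaining Golgi Rabs, Rab18, found on ER and lipid droplets, was nearly equal at 2435 and 2518. Rab33b, which links the Golgi to autophagy, had 173 and 160. Rab43 was lower with 180 and 232 (-0.39). Rab33a had 110 and 169 (1.56-fold lower), with the knockout value under that array's median, and lies on the X chromosome. Rab6b stayed below the filter, at 54.3 in the knockout and at the floor in the wild type, and Rab30 lay at the floor on both arrays.

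Early endosome Rabs held 1 of the larger decreases. Of 11 genes 8 passed, 3 lay above 0 and none was past 2-fold, with a median of -0.06. Rab5a, which controls homotypic fusion of early endosomes, was 1.62-fold lower in the knockout, at 1173 against 1864. Its paralog Rab5c was close to equal at 628 and 644, and Rab5b missed the filter at 135 against 77.7. Among the Rab5 genes past the filter, Rab5a was thus lower in the knockout and Rab5c nearly equal. No direction is given for Rab5b, which lay under the median on both arrays.

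Rab4a and Rab4b, of fast recycling, had differences of -0.33 and -0.06, and the second Rab4a probe set went the other way (496 against 410, or 0.25). Rab21, known for integrin endocytosis, and Rab31, of traffic from the trans-Golgi to endosomes, both had 0.33. Rab24, linked to autophagy, had 499 and 370 (0.41), with 0.22 for its other probe set.

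Rab22a, which acts between early and recycling endosomes, showed the widest disagreement of any member. Its brightest probe set had 414 against 491 in the wild type, a difference of -0.27, and another passing probe set had 299 and 67.2, a difference of 2.13. The SD between the pair was 1.70. No direction is therefore given for Rab22a. Rab17, known from polarised epithelia, did not reach the filter. Its brightest probe set had 92.9 and 92.7, and another had 89.4 in the wild type and lay at the floor in the knockout. Rab20 lay at the floor on both.

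All 10 Rabs of recycling endosomes and polarised exocytosis passed the filter, beside 7369 of all 12393 genes, and their median was 0.03 with 6 above 0. Rab25, a relative of Rab11 known from epithelial recycling, had the largest difference, 284 against 153 (1.83-fold higher), and its wild-type value lay at the array median. Rab8a, which carries vesicles to the plasma membrane and the cilium, read 1737 against 1295, a log2 difference of 0.40. Its paralog Rab8b was nearly equal at 418 and 427.

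Rab11a and Rab11b, of slow recycling, had differences of -0.23 and 0.08. Rab10, of exocytosis to the basolateral membrane, had 0.15 by the brightest of 3 probe sets, while the others gave -0.08 and 0.44. Rab13, found at tight junctions, had 298 and 288, and Rab15 had 622 and 601. Rab14, which shuttles between Golgi and endosomes, was lower with 1245 and 1593 (-0.38), and its passing probe sets ran from -0.41 to 0.01. Rab12 had -0.25. Apart from Rab25, the members of this group thus stayed within 0.40 of 0 by their brightest probe sets.

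Late endosome and lysosome Rabs held both the lowest and the highest member. Rab9, with 1 probe set, had 1425 in the knockout against 3129, or 2.23-fold lower (-1.16). Rab34, which positions lysosomes and acts early in cilium formation, read 1075 and 566, or 1.87-fold higher, and its other probe set read 683 and 315 (2.13-fold higher). Rab7, the main Rab of fusion with lysosomes, was nearly equal at 2534 and 2668, with 1196 and 1217 by its other probe set. Rab29 had 228 and 295 (-0.40). The genes of melanosome biogenesis Rab38 (152 and 137) and Rab32 (66.7 and 65.5) missed the filter, as did Rab7b, which lay at the floor on both arrays. The median of the other 4 genes was -0.25.

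The 2 members on the X chromosome, Rab9 and Rab33a, were both lower in the knockout, and so was most of that chromosome. On that chromosome 197 of the 238 genes past the filter were lower, 21.4% were at least 2-fold lower, and the median was -0.55. Eif2s3y, a gene of the Y chromosome, had 633 in the knockout against 2.04. The part of the sex chromosomes in the Rab9 and Rab33a values was not tested. Without X-linked genes, none of 46 members was past 2-fold, beside 7.27% of the 7128 genes past the filter that lie on neither X nor Y.

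Rabs of regulated secretion were mostly dim in these ES cells. Over all genes, 5024 of 12393 did not reach the filter. Of the 7 genes here 5 did not: Rab3b, Rab3c, Rab27a, Rab27b and Rab37. Among these Rab27a, of melanosomes and lytic granules, read 117 and 126, Rab37 read 93.0 and 88.4, and Rab3b and Rab27b lay at the floor on both arrays. Rab3a, of synaptic and hormone vesicles, read 220 and 227. Rab3d, of secretory granules, had 192 and 243 by 1 passing probe set and 181 and 176 by the other. No direction was thus shared by the probe sets of Rab3d.

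The group of cilium and other Rabs lay at or below 0, with 3 of 4 genes past the filter. Rab23, a negative regulator of Hedgehog signalling, was 1.55-fold lower, at 359 against 547, with -0.27 for its other probe set. Rab40c, which recruits a ubiquitin ligase through a SOCS box, was 1.51-fold lower, at 635 against 945, with -0.25 for its other probe set. Rab28 was nearly equal at 305 and 303, and Rab40b lay below the filter.

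**Figure D3:**
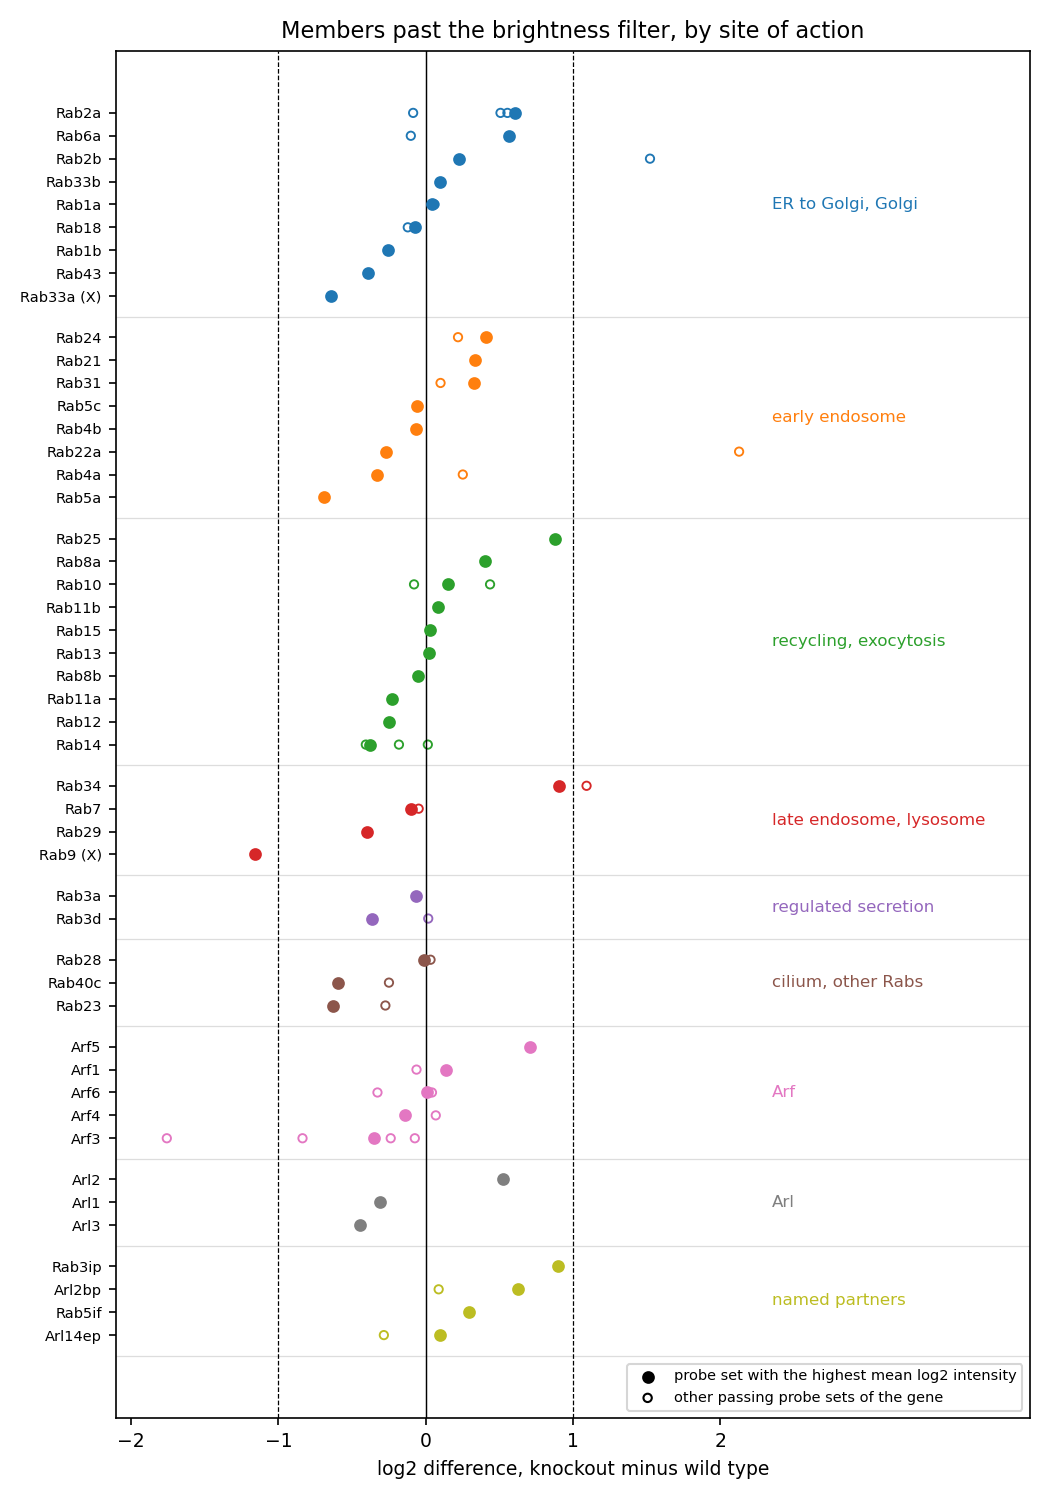
Log2 difference, knockout minus wild type (x axis), of each of the 48 members past the filter (rows, in groups by site of action); filled points are the brightest probe set on average, open points the gene's other passing probe sets, dashed lines 2-fold, and (X) marks X-linked genes. Rab9 is the filled point beyond a dashed line, and the open points of Rab22a, Rab2b, Rab34 and Arf3 lie beyond 2-fold while their filled points do not.

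Arf genes were mostly bright and nearly equal. Of 6 genes 5 passed, with a median of 0.01. Arf1, which recruits the COPI coat to the Golgi, read 6624 and 5920 (0.14), and its other passing probe set -0.06. Arf4 read 2150 and 2333, with -0.13 and 0.07 by its other passing probe sets. Arf6, which acts at the plasma membrane, read 3191 and 3123, and another passing probe set gave -0.33. These 3 genes stayed within 0.14 of 0 by their brightest probe sets.

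Arf5 was higher, at 198 against 120 (1.63-fold), and its wild-type value lay below the array median. Arf3 was lower by all 5 probe sets. The brightest read 804 and 1008 (-0.35), the others ran up to -0.07, and the lowest, at 60.2 against 200.2, gave -1.76. Arf2 did not reach the filter, and its brightest probe set had 118 and 121, while another had 51.9 and 130.1.

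The Arl GTPases past the filter were 3 of 4. Arl2, which acts in tubulin folding, was higher, at 1247 against 854 (0.52). Arl3, which releases lipid-anchored cargo in the cilium, was lower, at 749 against 1005 (-0.45). Arl1, which recruits golgins to the trans-Golgi, had 1341 and 1633 (-0.31). Arl16 stayed below the filter, at 101 and 96.4.

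All 4 named partners past the filter lay above 0, beside 48.8% of all genes, with a median of 0.46. Rab3ip, the exchange factor of Rab8 also called Rabin8, read 603 and 318 (1.87-fold higher). Arl2bp, which binds Arl2, had 1143 and 728 (1.55-fold higher), but 0.09 by its other probe set. Rab5if had 3277 and 2633 (0.29). Arl14ep had 0.10 by the brightest and -0.28 by the other passing probe set. The other 4 stayed below the filter, so the 4 that passed do not speak for the group. Of these Rab3il1, a relative of Rab3ip, read 107 and 136, and Rab26os 89.4 and 75.1. Rab3gap2 had 49.1 in the wild type and lay at the floor in the knockout, and Rab11fip5 lay at the floor on both arrays.

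Several members are close paralogs, such as Rab5a, Rab5b and Rab5c or Arf1 and Arf3, and their probe sets can share signal. Counted by probe set, 81 of 136 passed the filter, 3 were 2-fold higher (1 each of Rab22a, Rab2b and Rab34) and 2 were 2-fold lower (Rab9 and 1 of Arf3). That is 6.17%, beside 8.09% of all probe sets with 1 symbol past the filter. In 11 of the 23 members with several passing probe sets, or 47.8%, these shared 1 direction, beside 56.8% of 2567 genes. Among the 20 members below the filter, 7 lay on both arrays at the floor, where values have no order.

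Few genes of the machinery that loads and switches these GTPases were past 2-fold. Of 229 listed regulators, effectors and coat genes 155 were on the array and 117 passed the filter. Of these 2 were at least 2-fold higher and 3 lower, or 4.27%, beside the 7.84% of all genes. In 3 of these 5 genes (Chm, Bbs2 and Agfg2) the lower value lay under its array's median, so they passed only through the array where they were brighter. With both arrays required to reach the median, 1 was higher and 1 lower. The share of all genes was then 4.47%, and that of the regulators is not given, so the 2 cannot be compared. The median of the 117 was -0.05, with 51 above 0 (43.6%, beside 48.8% of all genes) and 66 below.

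In the list of prenylation and membrane cycle, Chm had the largest difference. Chm is the X-linked Rab escort protein that presents new Rabs for prenylation, and it had 84.5 in the knockout against 277, or 3.34-fold lower. The other 9 genes of that list past the filter were neither 2-fold higher nor lower, and the list median was -0.08. Of 13 Rab GEF genes none was past 2-fold (median -0.15), and the lowest was the X-linked TRAPP subunit gene Trappc2, at 557 against 1016 (1.85-fold lower). Of 14 Rab GAP genes, Tbc1d10b was 2.24-fold lower, at 867 against 1909, and the median was -0.03.

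Among 22 Rab effectors the median was 0.01, and Myo5a was past 2-fold. Myo5a, a myosin motor of melanosomes, read 316 and 153 (2.03-fold higher), with 0.70 for its other passing probe set. Myo5b, also listed, lay at the floor on both arrays. Bicd2, a dynein adaptor that binds Rab6, was higher, at 157 against 97.2 (1.59-fold). Mical1, a Rab-binding enzyme that oxidises actin, was lower, at 110 against 216 (1.99-fold). For Bicd2 and Mical1 the lower value lay under its array's median. Differences of effectors thus lay on both sides of 0.

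Of 19 Arf GEF and GAP genes, Agfg2 was 2.04-fold higher (188 against 91.0), and the median was -0.02. Genes for 2 GAPs of the COPI pathway went opposite ways. Arfgap2 read 820 and 426 (1.89-fold higher), with 0.35 for its other passing probe set. Arfgap3 read 92.1 and 179 (1.98-fold lower) and passed only through the wild-type array, where it was brighter. Cyth3, an Arf6 exchange factor, read 393 and 238 (1.62-fold higher). None of 27 genes of Arf effectors and coats was past 2-fold, with a median of 0.02, and the highest was the epithelial clathrin adaptor gene Ap1m2, at 997 against 580 (1.69-fold).

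In the short ciliary list 3 of 6 genes passed, and the median of -0.72 was the value of Bbs9 (138 against 223). Bbs2 and Bbs9 lay under the knockout array's median, so they passed only through the array where they were brighter. Mkks, the other gene past the filter, had 554 and 477 (0.19). Ttc8, below the filter, read 104 in the knockout and lay at the floor in the wild type. Bbs2, a subunit of the BBSome coat, was 2.16-fold lower, at 129 against 274. None of the 9 other small GTPases of traffic was past 2-fold, and the median was -0.17. Of these 9, 1 lay above 0 and 8 below, or 11.1% above 0, beside 48.8% of all genes past the filter.

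**Figure D4:**
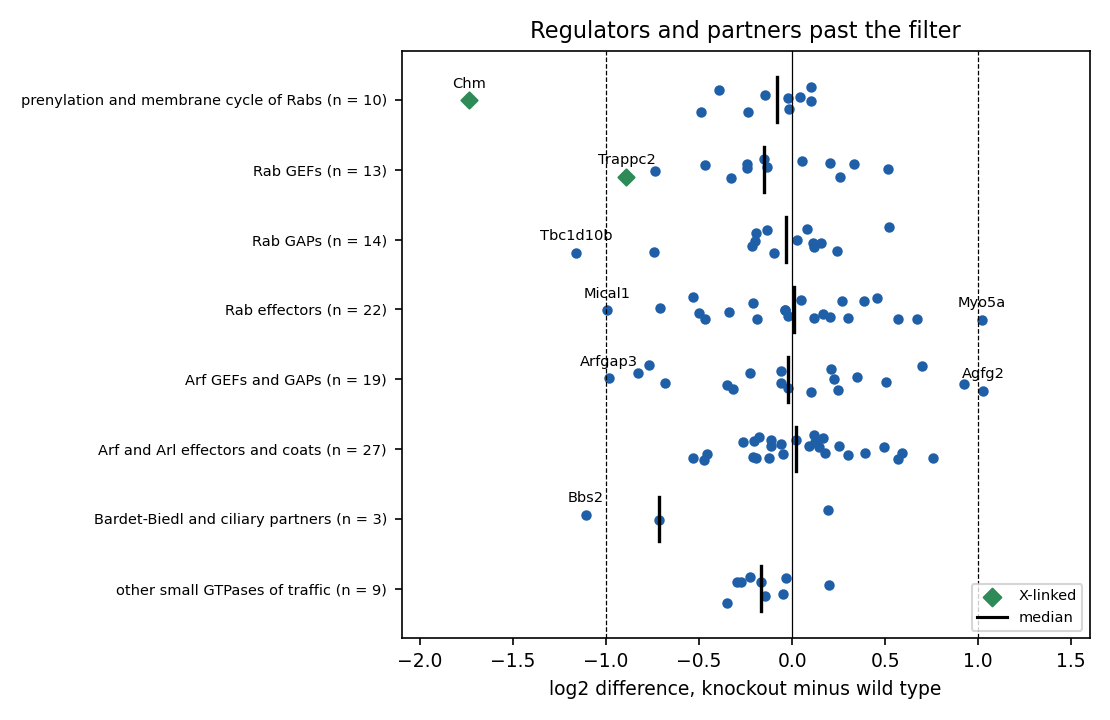
Log2 difference, knockout minus wild type (x axis), of the 117 regulators, effectors and related genes past the filter, in 8 lists (rows); black bars are list medians, green diamonds X-linked genes and dashed lines 2-fold. Chm, Tbc1d10b and Bbs2 lie past 2-fold lower, and Myo5a and Agfg2 past 2-fold higher.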

How the data were processed

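Total RNA from 1 Id1 knockout and 1 wild-type ES cell culture was labelled with biotin and hybridised to arrays, per the labels. The authors deposited 1 linear intensity per probe set, from 0.0977 to 39542. How the intensities were made and scaled is not given in the sources used here. Gene symbols came from the platform annotation of 2016, and chromosomes from the RefSeq table of GRCm38.p6, in which all 68 members were found by gene identifier.

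Intensities were converted to log2 and centred on each array's median over 22626 non-control probe sets, which removed a shift of 0.02. The 25th percentile of the centred values served as a floor, and a filter required the brighter value to reach its array's median. The genes named were members past 2-fold, the 10 largest differences in each direction, the 6 brightest members, members whose passing probe sets went opposite ways by 0.5 or more in total, and the 6 largest regulators in each direction. Other members were named to account for the list. The members and lists were chosen with earlier results of these data known. Alternatives covered the probe set rule, scaling, floor, filter, fold threshold and X-linked genes. The procedure was tested on data simulated from the wild-type array with added noise and known changes. That checks the calculation and cannot show how much 2 cultures differ. The number of arrays limits the precision. Python 3.11.15, pandas 2.3.3 and numpy 2.4.6 were used.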

Additional observations from a re-analysis of the deposited data

How the results depend on the processing

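No paired analysis was possible because there was 1 array per genotype and the labels carry no replicate numbers, and for the same reason no array could be left out. Rab9 stayed at least 2-fold lower under all 10 alternatives run for single members, with differences from -1.16 to -1.12. It has 1 probe set, far above the floor and the filter, so only the alternatives of scaling could change its value. The others returned the same value by construction and lend it no weight. The count of members at least 2-fold lower was 0 without X and Y genes, 0 without Rab9 and 0 at a 3-fold threshold, where none was higher either. At a 1.5-fold threshold 6 members were higher and 5 lower. Counted by probe set, a count chosen after seeing the data like the one without Rab9, 3 were higher and 2 lower. The members' median log2 difference ran from -0.06 to 0.04 over the alternatives. The share of members past the threshold lay below that of all genes in 15 of 16 alternatives, the exception being the 1.5-fold threshold. These alternatives use the same 2 arrays, and by gene the 2-fold share rests on Rab9 alone. They are therefore no independent evidence of a low share.

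Among 29 named members, 6 of 284 values moved by more than 0.22, the median SD between probe sets of a gene, and none past 2-fold reversed. The sign of 3 members changed, namely Rab22a (0.93 with the mean of its passing probe sets), Rab4a (0.25 without probe sets of the x, s and a types) and Arf6 (-0.33 without them). These 3 have passing probe sets that go opposite ways. For regulators and partners, the count at least 2-fold higher was 1 with the mean over probe sets, 1 without probe sets of the x, s and a types, 4 with the filter at the 25th percentile, 4 with no filter and 1 with both arrays at or above the median. The count at least 2-fold lower was 1 with both arrays at or above the median.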
